A study of Mus musculus with 15 samples.

Results

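The cytochrome P450 genes of families 2, 3 and 4 were examined in mouse colon. They were taken by symbol, as every gene whose name begins with Cyp2, Cyp3 or Cyp4 followed by a subfamily letter and a number, without pseudogenes, which gave 78 of the 22063 genes in the table. The study measured RNA of the colon in 15 libraries of 3 groups of 5. The WMW-H libraries came from mice of the AOM/DSS model given WMW-H, which the series describes as a treatment in a study of Wumei Wan, a herbal formula. The AOM/DSS libraries came from the colorectal cancer model, in which azoxymethane (AOM, a carcinogen) is combined with dextran sulfate sodium (DSS, an irritant of the colon lining). The Control libraries came from untreated mice. All groups were C57BL/6 and wild type. The dose of WMW-H, the meaning of the letter H, and the age and sex of the mice are not given in the sources used here. The labels number the libraries of each group from 1 to 5 and do not say that each came from a separate mouse, so p-values measure only the spread between these libraries.

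P450 enzymes are haem proteins of the endoplasmic reticulum that insert an oxygen atom into a substrate, with electrons supplied by the reductase encoded by Por. In families 2 and 3, many members oxidise drugs, carcinogens, steroids and, for the Cyp2c and Cyp2j enzymes, arachidonic acid. Family 4 enzymes hydroxylate the end of the chain of fatty acids and of signalling lipids such as leukotriene B4. In mice, these genes lie in tandem arrays that expanded in rodents, and while most are best known from the liver, some, such as Cyp2c55 and Cyp2c65, are known for expression in the gut. Azoxymethane itself becomes a DNA-alkylating agent after oxidation by P450s, chiefly Cyp2e1.

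The values deposited by the authors are FPKM, that is fragments scaled for transcript length and sequencing depth, so levels of different genes can be compared per length. The libraries held 16346000 to 21126500 fragments, as read from the steps between low FPKM values, and 16377 to 16692 genes above 0. The labelled cell type, colon epithelial cells, was checked against marker genes by their summed FPKM. The 8 colon epithelium markers, such as Epcam and Cdx2, summed to 4744 to 4966 in WMW-H libraries, 5617 to 5698 in AOM/DSS libraries and 5631 to 5690.1 in Control libraries. Markers of smooth muscle, which is not part of the epithelium, were also present in every group, at 2348 to 2483 in WMW-H, 2329 to 2408 in AOM/DSS and 2348 to 2419.9 in Control libraries. Several lists moved with the groups. The 6 genes matched of 7 that mark the posterior end of the body axis, of which 4 were tested and 2 rose in AOM/DSS against Control, summed to 41.04 to 47.8 in WMW-H, 104 to 110.0 in AOM/DSS and 27.7 to 31.2 in Control libraries. Within that list, Hoxd13 averaged 4.75 ± 0.499 in WMW-H, 3.24 ± 0.396 in AOM/DSS and 0.166 ± 0.0405 FPKM in Control libraries. The 11 pancreatic acinar transcripts matched of 12 summed to 8624 to 9193 in WMW-H, 5131 to 5272 in AOM/DSS and 22445 to 23085 in Control libraries. The 7 male accessory gland transcripts matched of 8 summed to 52.3 to 67.4 in WMW-H, 2577 to 2732 in AOM/DSS and 30.1 to 43.2 in Control libraries, in which Pate4 was at 0. All 11 pancreatic genes fell and all 7 accessory gland genes rose in AOM/DSS against Control, where 45.5% of all tested genes rose and 20.6% fell. In such bulk RNA, fewer cells of a type and less RNA per cell cannot be told apart, and whether the groups were sampled at the same place along the colon is not given. The part of these lists in the results below was not tested.

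Most of the 78 genes were low or undetected in the colon, and a few were very high. At a group mean of at least 10 FPKM there were 15 members, 11 had a highest group mean between 1 and 10 FPKM, and 15 were listed at 0 in every library. Cyp2c55, whose mouse enzyme hydroxylates arachidonic acid near the end of its chain, was the highest member in all 15 libraries. It alone made up 61.3% of the members' summed FPKM in WMW-H, 60.1% in AOM/DSS and 56.4% in Control libraries. Next in level came Cyp4f14, Cyp2c65, Cyp2s1 and Cyp3a13, whose highest group means were 106, 95.8, 57.1 and 49.7 FPKM. Of the 9 Cyp2d genes 6 were measured well enough to be tested, and of the 9 Cyp4f genes 6. By contrast 1 of 9 Cyp3a genes, 1 of 5 Cyp2b genes and none of the 8 Cyp4a or 4 Cyp2a genes were.

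**Figure D1:**
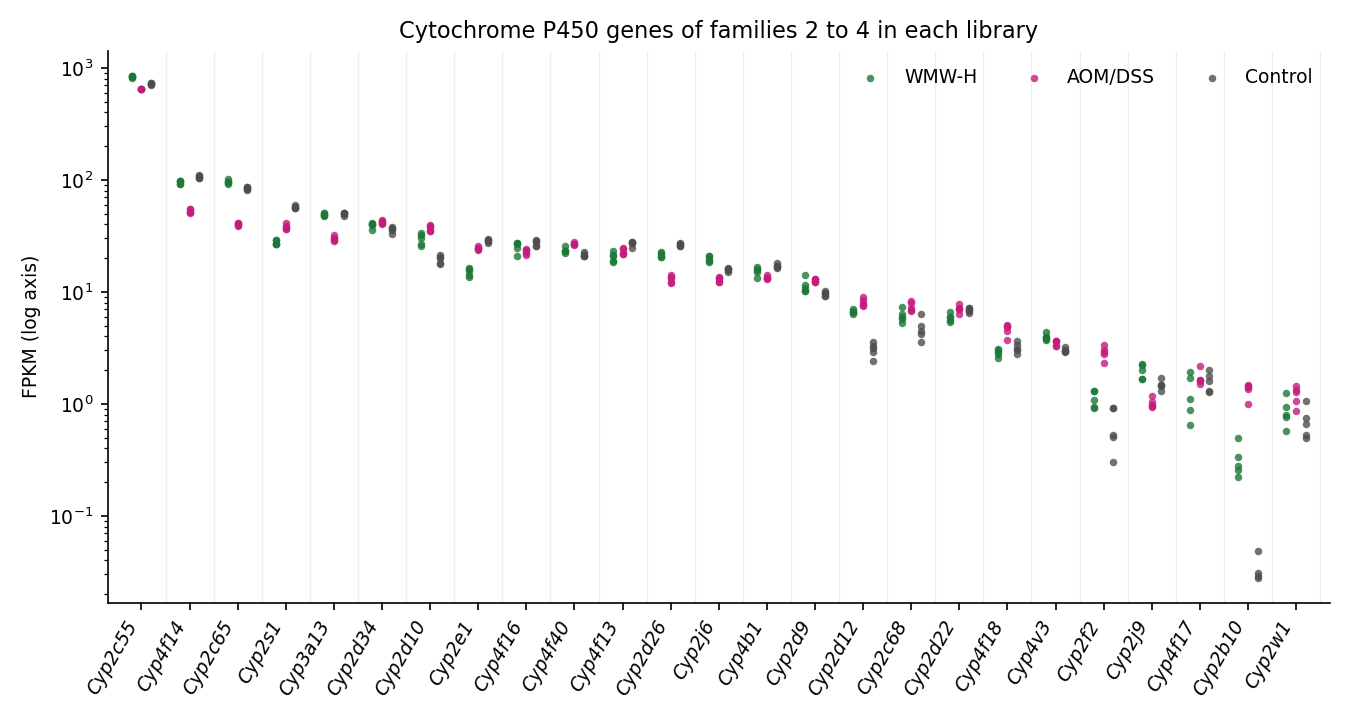
FPKM of the 25 tested members in every library, on a log axis, with WMW-H, AOM/DSS and Control libraries side by side and members in order of their highest group mean. Cyp2c55 lies several times above all others, and members below about 10 FPKM separate the groups as clearly as the high ones in some cases (Cyp2d12) and not in others (Cyp4f17); 1 Control value of Cyp2b10 is 0 and is not drawn.

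The members' summed level was lowest in AOM/DSS libraries. It was 1339, 1384, 1333, 1371 and 1385 FPKM in WMW-H libraries 1 to 5, 1078, 1072, 1087, 1093 and 1089 FPKM in AOM/DSS libraries and 1287, 1281, 1252, 1292 and 1281 FPKM in Control libraries. No library of 1 group reached into the range of another, with WMW-H above Control and Control above AOM/DSS. The means were 1362 ± 24.7 FPKM in WMW-H, 1084 ± 8.29 FPKM in AOM/DSS and 1279 ± 15.6 FPKM in Control libraries (SD, n = 5 each), or 0.257% of the library total in WMW-H, 0.212% in AOM/DSS and 0.241% in Control. The rank of WMW-H over Control rested on Cyp2c55, and without it the sums were 527 ± 13.3 FPKM in WMW-H, 432 ± 4.86 FPKM in AOM/DSS and 557 ± 5.36 FPKM in Control libraries. Subfamilies differed in their pattern. The Cyp4f sum was 169 ± 6.77 in WMW-H, 133 ± 3.65 in AOM/DSS and 187 ± 2.49 FPKM in Control libraries, whereas the Cyp2d sum was 115 ± 4.94 in WMW-H, 120.1 ± 1.78 in AOM/DSS and 102 ± 2.70 FPKM in Control libraries. These sums follow the few highest genes of each subfamily and were not tested.

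**Figure D2:**
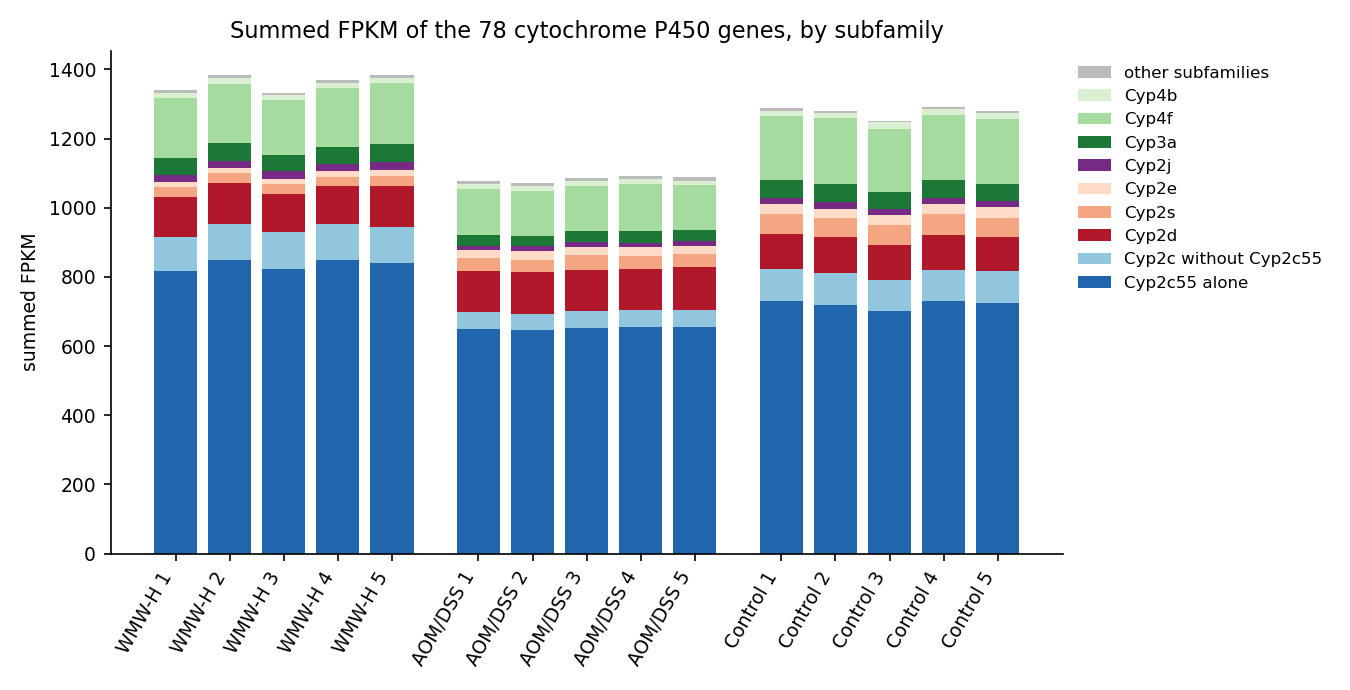
Summed FPKM of the 78 members, drawn as a stacked bar for each library. Segments show Cyp2c55 alone, the other Cyp2c genes, the leading subfamilies and the remaining members. AOM/DSS libraries are lowest in the total, and the Cyp2d segment does not follow that order.

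Single genes were tested on log2(FPKM + 1) with limma, 1 fit over all 15 libraries, for the 25 members among 12917 genes that reached 1 FPKM in at least 5 libraries. A gene was called where its Benjamini-Hochberg adjusted p over all genes tested was at most 0.05. A difference on this scale understates the change of genes near or below 1 FPKM, and a low member passed the filter only through the groups where it was high. Each pair of the 3 comparisons shares 1 group of libraries, so their results are not independent of each other.

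In AOM/DSS against Control libraries, which asks what the cancer model changed, the 25 tested members moved in both directions. Of these, 11 rose (Cyp2d34, Cyp2d10, Cyp4f40, Cyp2d9, Cyp2d12, Cyp2c68, Cyp4f18, Cyp4v3, Cyp2f2, Cyp2b10 and Cyp2w1) and 12 fell (Cyp2c55, Cyp4f14, Cyp2c65, Cyp2s1, Cyp3a13, Cyp2e1, Cyp4f16, Cyp4f13, Cyp2d26, Cyp2j6, Cyp4b1 and Cyp2j9), while Cyp2d22 and Cyp4f17 were not called. Cyp2b10 is in this count although it passed the filter through the AOM/DSS libraries alone, so its call is no support for a change. Cyp2w1 and Cyp2f2 would not have passed without the AOM/DSS libraries, and their calls are limited in the same way. The groups did not overlap for 21 of the 25. Of all tested genes 66.1% were called in either direction, 45.5% higher and 20.6% lower, and 52.9% had groups that did not overlap. The members' median difference was 0.03, against 0.12 for all tested genes, and 11 members lay above and 14 below that value of all genes. Rescaling the libraries by size factors moved the all-gene median to 0.01 and the share of higher calls among all called genes to 51.4%, against 68.9% as deposited, and quantile normalization moved them to -0.02 and 47.5%. Members called higher and lower then numbered 9 and 12 with size factors and 8 and 11 with quantile normalization. Among the called members, those that fell held most of the summed FPKM, since Cyp2c55, Cyp4f14, Cyp2c65, Cyp2s1 and Cyp3a13 are the 5 highest members.

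WMW-H against AOM/DSS libraries, which asks what the treatment changed in the model, also gave calls in both directions. Of the 25 members, 9 rose (Cyp2c55, Cyp4f14, Cyp2c65, Cyp3a13, Cyp2d26, Cyp2j6, Cyp4b1, Cyp4v3 and Cyp2j9) and 11 fell (Cyp2s1, Cyp2d10, Cyp2e1, Cyp4f40, Cyp4f13, Cyp2d12, Cyp2c68, Cyp2d22, Cyp4f18, Cyp2f2 and Cyp2b10). Cyp2d34, Cyp4f16, Cyp2d9, Cyp4f17 and Cyp2w1 were not called. Cyp2b10 is counted although it passed the filter through the AOM/DSS libraries alone, so its call is no support for a change. Cyp2f2 would not have passed without the AOM/DSS libraries, and its call is limited in the same way. The background was 66.8% of all tested genes called in either direction, 25.9% higher and 40.9% lower. Groups did not overlap for 16 members, against 51.2% of all genes. The median difference was -0.15 over the members and -0.07 over all genes. Quantile normalization gave 10 members higher and 7 lower (all genes, 49.6% of calls higher against 38.8% as deposited), and rescaling to TPM gave 8 higher and 15 lower.

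WMW-H against Control libraries asks what differed from untreated colon in treated animals. Of the 25 members, 13 were higher in WMW-H (Cyp2c55, Cyp2c65, Cyp2d34, Cyp2d10, Cyp4f40, Cyp2j6, Cyp2d9, Cyp2d12, Cyp2c68, Cyp4v3, Cyp2f2, Cyp2j9 and Cyp2b10) and 7 were lower (Cyp4f14, Cyp2s1, Cyp2e1, Cyp4f13, Cyp2d26, Cyp4b1 and Cyp2d22), while Cyp3a13, Cyp4f16, Cyp4f18, Cyp4f17 and Cyp2w1 were not called. Of all tested genes 59.5% were called in either direction, 35.4% higher and 24.1% lower. Groups did not overlap for 12 members, against 42.3% of all genes. The median difference was 0.13 over the members and 0.05 over all genes. Quantile normalization gave 6 members higher and 8 lower (all genes, 47.97% of calls higher against 59.5% as deposited), and an exact rank-sum test 8 higher and 7 lower.

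**Figure D3:**
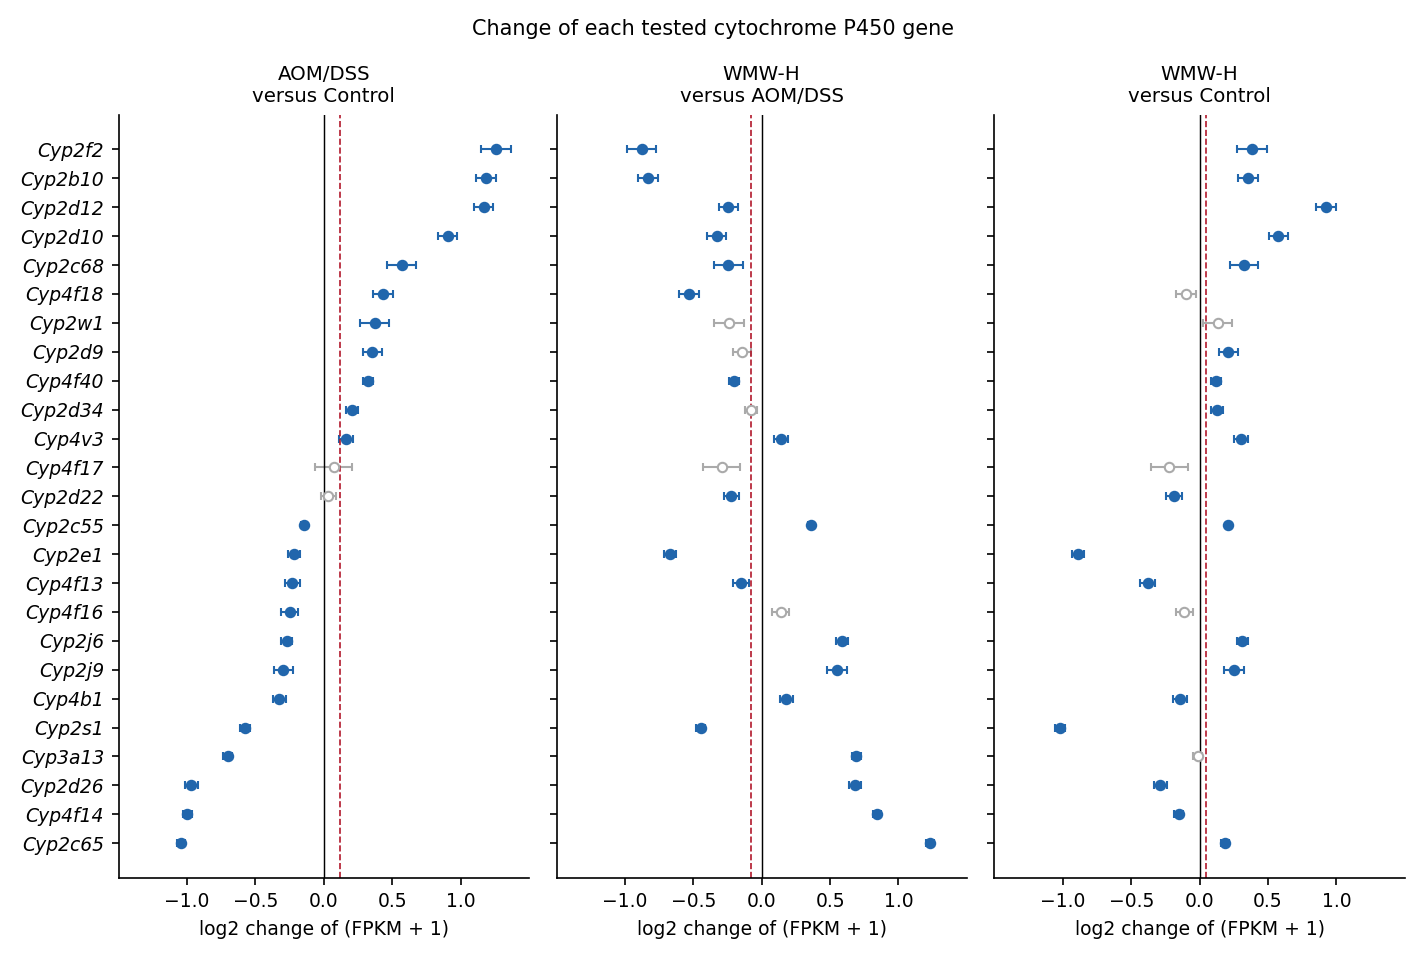
Difference in mean log2(FPKM + 1) of each tested member, with its SE, in the 3 comparisons. Filled points passed the test and open points did not, and the dashed line is the median of all tested genes. Cyp2b10, Cyp2w1 and Cyp2f2 were tested only because of their AOM/DSS levels. Cyp2c65 and Cyp4f14 lie near -1 in AOM/DSS against Control and near 1 in WMW-H against AOM/DSS, while Cyp2s1 and Cyp2e1 lie below 0 in every panel.

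The Cyp2c genes of the gut, whose enzymes oxidise arachidonic acid, were led by Cyp2c55 (ENSMUSG00000025002) and Cyp2c65 (ENSMUSG00000067231). Cyp2c55 stood at 817, 849, 822, 849 and 839.6 FPKM in WMW-H libraries 1 to 5, at 649, 646, 653, 654 and 654 FPKM in AOM/DSS libraries and at 731, 719, 702, 729 and 725 FPKM in Control libraries. Every WMW-H library was above every Control library, and every Control library was above every AOM/DSS library. On the log2 scale the difference was -0.15 ± 0.02 (SE, adjusted p = 1.24e-06) for AOM/DSS against Control, 0.36 ± 0.02 (SE, adjusted p = 1.86e-11) for WMW-H against AOM/DSS and 0.21 ± 0.02 (SE, adjusted p = 2.26e-08) for WMW-H against Control. The smallest of these, AOM/DSS against Control, lost its call under quantile normalization, at -0.01 with adjusted p = 0.537.

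Cyp2c65 moved more. It had 92.2, 95.3, 101, 94.98 and 95.5 FPKM in WMW-H libraries, 39.6, 38.5, 40.5, 41.5 and 41.2 FPKM in AOM/DSS libraries and 85.6, 85.01, 83.2, 81.1 and 86.02 FPKM in Control libraries. The AOM/DSS values were all below those of the other groups, and WMW-H and Control did not overlap. The difference was -1.05 ± 0.03 (SE, adjusted p = 2.71e-15) for AOM/DSS against Control, 1.23 ± 0.03 (SE, adjusted p = 9.29e-16) for WMW-H against AOM/DSS and 0.18 ± 0.03 (SE, adjusted p = 3.42e-05) for WMW-H against Control. In GENCODE M21, Cyp2c65 shares 20.6% of the 50-base windows of its longest coding transcript with other genes, most of them with its neighbour Cyp2c66, so reads of the pair may have been divided by the quantification. Cyp2c66 itself averaged 0.936 ± 0.322 FPKM in WMW-H, 0.468 ± 0.133 in AOM/DSS and 0.686 ± 0.214 in Control libraries and was below the filter.

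Cyp2c68 lay lower, at 6.11 ± 0.748 FPKM in WMW-H, 7.40 ± 0.668 in AOM/DSS and 4.72 ± 1.04 in Control libraries, in the opposite order of Cyp2c65 between AOM/DSS and the other groups. It rose by 0.57 ± 0.10 (SE, adjusted p = 1.42e-04) in AOM/DSS against Control and by 0.33 ± 0.10 (SE, adjusted p = 0.0131) in WMW-H against Control, and the difference of WMW-H from AOM/DSS was -0.24 ± 0.10 (SE, adjusted p = 0.0498). This last call was at the threshold: without any 1 of Control libraries 1, 2 or 5, AOM/DSS libraries 2, 4 or 5 or WMW-H libraries 1, 2, 3 or 4, the adjusted p was 0.0529 to 0.122. It was 0.139 with size factors. The WMW-H against Control call ended with quantile normalization (adjusted p = 0.0512) and the exact rank-sum test (adjusted p = 0.147). Cyp2c68 shares 43.3% of its windows with other transcripts, chiefly Cyp2c40, and is uncertain for that reason.

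Cyp2c55, Cyp2c65 and Cyp2c66 are direct neighbours on chromosome 19, and Cyp2s1 and Cyp2b10 are direct neighbours on chromosome 7, in the order of RefSeq protein coding genes on GRCm38.p6. Because these neighbours differed in the size or direction of their changes, the 250 bases before the RefSeq start of Cyp2c55 and Cyp2c65 are printed here, and those of Cyp2s1 and Cyp2b10 beside their values, 5′ to 3′ on the gene's own strand. In Cyp2c55 (chr19:39006769-39007018, + strand) capitals mark TATAAA, the TATA box letters. In Cyp2c65 (chr19:39060756-39061005, + strand) they mark TATAAA and CAAAGTCCA, the core of a site bound by HNF4A.
Cyp2c55: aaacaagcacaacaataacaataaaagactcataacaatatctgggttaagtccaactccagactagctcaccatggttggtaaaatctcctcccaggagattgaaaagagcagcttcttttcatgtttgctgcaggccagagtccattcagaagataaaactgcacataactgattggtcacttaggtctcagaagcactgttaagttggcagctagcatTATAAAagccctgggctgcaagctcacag
Cyp2c65: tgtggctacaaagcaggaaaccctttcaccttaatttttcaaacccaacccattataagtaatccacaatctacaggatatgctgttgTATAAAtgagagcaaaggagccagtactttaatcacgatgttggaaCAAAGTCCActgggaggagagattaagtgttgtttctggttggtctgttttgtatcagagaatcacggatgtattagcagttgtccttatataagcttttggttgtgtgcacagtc
Counted back from the start, the Cyp2c55 match begins at position -29, the usual place of a TATA box, and that of Cyp2c65 at position -162. CAAAGTCCA begins at position -116 of Cyp2c65 and was also found before Cyp2c68, among 21 tested members with an entry. Over the 27025 promoters of this length that were counted, 0.381% hold it on either strand, and 12.97% hold TATAAA, which 6 of the 21 members hold. The promoters counted leave out a chromosome that holds none of the tested members. In these and the later counts, a member was counted if any of its listed starts held the letters. The share of all promoters used only the first listed start of each gene, so the shares are not counted alike. A match of letters is a description of the sequence and not a bound site.

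The Cyp4f genes, which encode fatty acid and leukotriene hydroxylases, were led by Cyp4f14 (ENSMUSG00000024292), whose mouse enzyme inactivates leukotriene B4. Cyp4f14 had 97.4, 98.4, 91.03, 92.8 and 98.5 FPKM in WMW-H libraries, 54.7, 51.6, 51.6, 55.4 and 50.8 FPKM in AOM/DSS libraries and 105, 109, 104, 109.6 and 105 FPKM in Control libraries. AOM/DSS values were all lower than those of the other groups, and WMW-H and Control did not overlap. The difference was -0.998 ± 0.03 (SE, adjusted p = 1.75e-14) for AOM/DSS against Control, 0.84 ± 0.03 (SE, adjusted p = 5.12e-13) for WMW-H against AOM/DSS and -0.15 ± 0.03 (SE, adjusted p = 4.39e-04) for WMW-H against Control. Cyp4f18, known as the leukotriene B4 hydroxylase of mouse neutrophils, went the other way, at 2.88 ± 0.208 FPKM in WMW-H, 4.63 ± 0.543 in AOM/DSS and 3.17 ± 0.309 in Control libraries. It rose by 0.43 ± 0.07 (SE, adjusted p = 6.30e-05) in AOM/DSS against Control and the difference was -0.53 ± 0.07 (SE, adjusted p = 6.42e-06) for WMW-H against AOM/DSS and -0.10 ± 0.07 (SE, adjusted p = 0.241), not called, for WMW-H against Control. Of 10 macrophage and monocyte markers 9 rose and 1 fell in AOM/DSS against Control, where 45.5% of all tested genes rose and 20.6% fell. The markers summed to 578 to 611 in WMW-H, 709 to 725 in AOM/DSS and 332 to 357 FPKM in Control libraries. No neutrophil list was read, and the part of any of these cells in the Cyp4f18 level was not tested.

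Cyp4f13, Cyp4f16 and Cyp4f40 stood at group means of 20.6 to 27.3 FPKM, and their differences were smaller than those of Cyp4f14 in both comparisons with AOM/DSS. Cyp4f13 had 20.9, 18.6, 18.96, 21.3 and 23.03 FPKM in WMW-H libraries, 24.1, 21.7, 22.2, 24.7 and 21.8 FPKM in AOM/DSS libraries and 27.6, 27.7, 28.02, 24.5 and 27.3 FPKM in Control libraries. WMW-H was lowest and Control highest, and AOM/DSS overlapped with both other groups. The difference was -0.23 ± 0.06 (SE, adjusted p = 0.00180) for AOM/DSS against Control, -0.15 ± 0.06 (SE, adjusted p = 0.0266) for WMW-H against AOM/DSS and -0.38 ± 0.06 (SE, adjusted p = 2.06e-05) for WMW-H against Control. The second of these was lost without AOM/DSS library 1 or 4 or WMW-H library 2 or 3, at adjusted p = 0.0653 to 0.0782, and with size factors, quantile normalization or the exact rank-sum test. Cyp4f16 had 27.1, 24.4, 21.03, 26.6 and 27.4 FPKM in WMW-H libraries, 22.1, 24.04, 23.03, 23.5 and 21.4 FPKM in AOM/DSS libraries and 25.9, 28.003, 25.6, 28.8 and 28.3 FPKM in Control libraries. Control was highest, and WMW-H overlapped with both other groups. Cyp4f16 fell in AOM/DSS against Control, with a difference of -0.25 ± 0.06 (SE, adjusted p = 0.00171). Its differences of 0.14 ± 0.06 (SE, adjusted p = 0.0550) for WMW-H against AOM/DSS and -0.11 ± 0.06 (SE, adjusted p = 0.125) for WMW-H against Control were not called. The first passed without AOM/DSS library 2 or WMW-H library 3, at adjusted p = 0.00115 to 0.0462, and with size factors (adjusted p = 0.00539), under which the other passed too (adjusted p = 0.0239).

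Cyp4f40 had 22.98, 23.1, 22.98, 25.4 and 22.4 FPKM in WMW-H libraries, 26.96, 26.4, 26.9, 26.9 and 28.03 FPKM in AOM/DSS libraries and 21.005, 20.9, 22.6, 20.7 and 21.7 FPKM in Control libraries. AOM/DSS was highest, and WMW-H overlapped with Control only. The difference was 0.33 ± 0.04 (SE, adjusted p = 5.23e-07) for AOM/DSS against Control, -0.20 ± 0.04 (SE, adjusted p = 1.04e-04) for WMW-H against AOM/DSS and 0.12 ± 0.04 (SE, adjusted p = 0.00790) for WMW-H against Control, and the last was lost with size factors (adjusted p = 0.0903) and quantile normalization (adjusted p = 0.0943). Cyp4f17 averaged 1.25 ± 0.540 FPKM in WMW-H, 1.71 ± 0.257 in AOM/DSS and 1.58 ± 0.305 in Control libraries, with no call. Its differences were 0.07 ± 0.14 (SE, adjusted p = 0.658) for AOM/DSS against Control, -0.29 ± 0.14 (SE, adjusted p = 0.0648) for WMW-H against AOM/DSS and -0.22 ± 0.14 (SE, adjusted p = 0.169) for WMW-H against Control. Without WMW-H library 1 or 2 the WMW-H against AOM/DSS difference passed, at adjusted p = 0.0111 to 0.0279, and without WMW-H library 2 so did WMW-H against Control, at adjusted p = 0.0362. Cyp4f genes of 1 array on chromosome 17 thus moved in opposite directions, with Cyp4f14 and Cyp4f13 falling and Cyp4f40 rising in AOM/DSS against Control. Cyp4f16 shares 26.5% of its windows with other transcripts, chiefly Cyp4f37.

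Outside Cyp4f, family 4 had 2 tested members. Cyp4b1, which hydroxylates fatty acids and activates plant toxins such as ipomeanol, averaged 15.3 ± 1.22 FPKM in WMW-H, 13.4 ± 0.418 in AOM/DSS and 16.99 ± 0.612 in Control libraries. The difference was -0.32 ± 0.05 (SE, adjusted p = 1.43e-05) for AOM/DSS against Control, 0.18 ± 0.05 (SE, adjusted p = 0.00312) for WMW-H against AOM/DSS and -0.14 ± 0.05 (SE, adjusted p = 0.0164) for WMW-H against Control. The second of these had adjusted p = 0.0509 with the exact rank-sum test. Cyp4v3, the mouse counterpart of a human fatty acid hydroxylase gene of the retina, averaged 3.96 ± 0.273 FPKM in WMW-H, 3.49 ± 0.201 in AOM/DSS and 3.01 ± 0.105 in Control libraries. It rose by 0.16 ± 0.05 (SE, adjusted p = 0.0117) in AOM/DSS against Control, by 0.14 ± 0.05 (SE, adjusted p = 0.0216) in WMW-H against AOM/DSS and by 0.30 ± 0.05 (SE, adjusted p = 8.48e-05) in WMW-H against Control. The first was lost with size factors (adjusted p = 0.259) and quantile normalization (adjusted p = 0.892). The second was lost with TPM (adjusted p = 0.0982) and without AOM/DSS library 2 or 3 or WMW-H library 2, at adjusted p = 0.0562 to 0.0672.

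The Cyp2d genes, the mouse counterparts of the human drug-metabolising gene CYP2D6, did not move as a group. Cyp2d34 had 39.3, 40.7, 35.7, 41.5 and 40.1 FPKM in WMW-H libraries, 43.1, 40.2, 41.1, 43.5 and 40.8 FPKM in AOM/DSS libraries and 35.8, 36.2, 38.2, 37.3 and 32.6 FPKM in Control libraries. Its groups lay close together, and WMW-H overlapped with both other groups. The difference was 0.21 ± 0.04 (SE, adjusted p = 6.00e-04) for AOM/DSS against Control, -0.08 ± 0.04 (SE, adjusted p = 0.123), not called, for WMW-H against AOM/DSS and 0.13 ± 0.04 (SE, adjusted p = 0.0214) for WMW-H against Control. Both calls were lost with size factors, at adjusted p = 0.0756 for AOM/DSS and 0.129 for WMW-H, and with quantile normalization, at adjusted p = 0.0568 for AOM/DSS and 0.0532 for WMW-H. The second was lost also with the exact rank-sum test (adjusted p = 0.147) and without Control library 5 or WMW-H library 4 (adjusted p = 0.0586 to 0.0659). Cyp2d10 had 31.97, 33.3, 27.02, 25.5 and 30.2 FPKM in WMW-H libraries, 34.9, 38.5, 37.97, 35.2 and 39.9 FPKM in AOM/DSS libraries and 21.2, 20.1, 17.7, 20.3 and 18.1 FPKM in Control libraries. AOM/DSS was highest, Control lowest, and no group overlapped with another. The difference was 0.90 ± 0.07 (SE, adjusted p = 3.63e-09) for AOM/DSS against Control, -0.33 ± 0.07 (SE, adjusted p = 4.43e-04) for WMW-H against AOM/DSS and 0.58 ± 0.07 (SE, adjusted p = 1.72e-06) for WMW-H against Control.

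Cyp2d12 showed the same order at a lower level. It had 7.01, 6.34, 6.57, 6.79 and 6.58 FPKM in WMW-H libraries, 7.97, 7.57, 8.38, 7.46 and 9.03 FPKM in AOM/DSS libraries and 3.30, 3.56, 2.39, 2.88 and 3.15 FPKM in Control libraries. Control values were all lower than those of the other groups, and no group overlapped with another. The difference was 1.17 ± 0.07 (SE, adjusted p = 1.94e-10) for AOM/DSS against Control, -0.24 ± 0.07 (SE, adjusted p = 0.00626) for WMW-H against AOM/DSS and 0.92 ± 0.07 (SE, adjusted p = 8.49e-09) for WMW-H against Control, the second with adjusted p = 0.0540 under quantile normalization. Cyp2d26, at the far end of the Cyp2d array on chromosome 15, went the other way. It had 22.1, 22.9, 21.3, 20.5 and 20.6 FPKM in WMW-H libraries, 13.3, 13.5, 11.97, 12.2 and 14.2 FPKM in AOM/DSS libraries and 25.9, 27.2, 26.8, 26.6 and 25.5 FPKM in Control libraries. Control was highest, AOM/DSS lowest, and no group overlapped with another. The difference was -0.97 ± 0.04 (SE, adjusted p = 4.61e-12) for AOM/DSS against Control, 0.68 ± 0.04 (SE, adjusted p = 8.30e-10) for WMW-H against AOM/DSS and -0.29 ± 0.04 (SE, adjusted p = 3.77e-05) for WMW-H against Control.

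Of the other tested Cyp2d genes, Cyp2d9 averaged 11.4 ± 1.66 FPKM in WMW-H, 12.6 ± 0.463 in AOM/DSS and 9.64 ± 0.433 in Control libraries, with a rise of 0.36 ± 0.07 (SE, adjusted p = 2.12e-04) in AOM/DSS against Control and of 0.21 ± 0.07 (SE, adjusted p = 0.0135) in WMW-H against Control, the second with adjusted p = 0.0830 under quantile normalization and 0.0581 with the exact rank-sum test. The WMW-H against AOM/DSS difference of Cyp2d9, -0.14 ± 0.07 (SE, adjusted p = 0.0718), was not called with all libraries and was called with TPM (adjusted p = 0.0200) and without WMW-H library 5, at adjusted p = 5.30e-04. Cyp2d22, the member often taken as closest in function to CYP2D6, averaged 5.93 ± 0.473 FPKM in WMW-H, 7.08 ± 0.544 in AOM/DSS and 6.88 ± 0.273 in Control libraries. Its difference was 0.03 ± 0.06 (SE, adjusted p = 0.622), not called, for AOM/DSS against Control, -0.22 ± 0.06 (SE, adjusted p = 0.00253) for WMW-H against AOM/DSS and -0.19 ± 0.06 (SE, adjusted p = 0.00923) for WMW-H against Control, the second with adjusted p = 0.0513 under quantile normalization. Cyp2d10 shares 40.5% of its 50-base windows with other transcripts (chiefly Cyp2d11), Cyp2d9 29.04%, Cyp2d12 17.9%, Cyp2d34 13.7% and Cyp2d26 10.5%, so how the quantification divided reads among them limits each of these values.

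**Figure D4:**
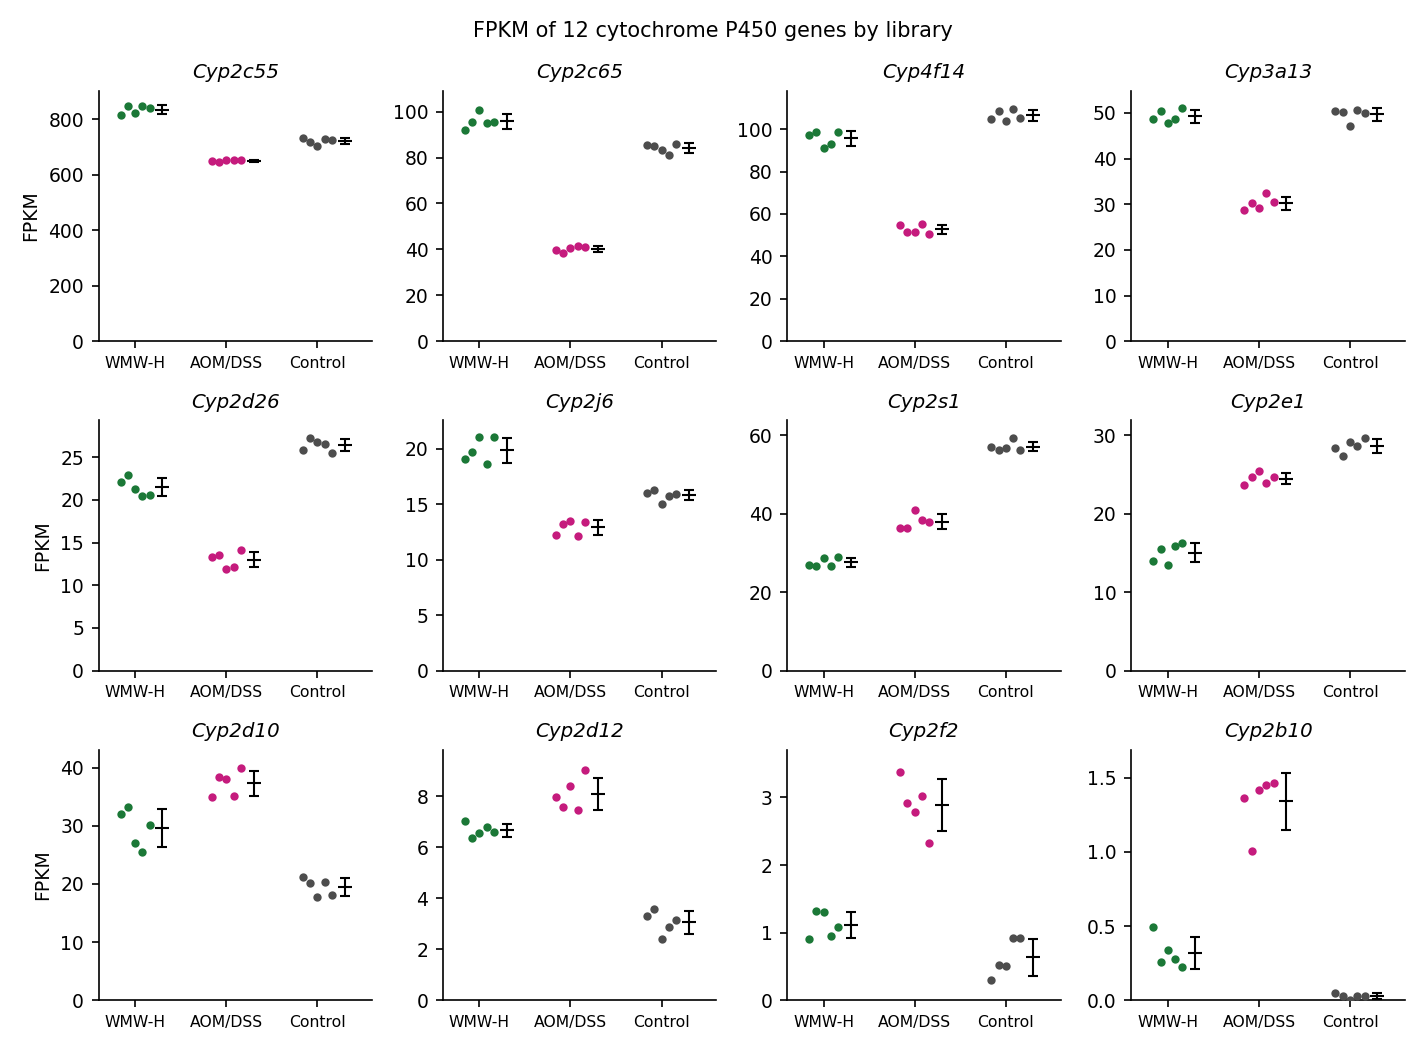
FPKM in each library of members described with all their values, with WMW-H left, AOM/DSS in the middle and Control right in each panel, and the mean and SD of 5 libraries. Cyp2c65, Cyp4f14, Cyp3a13 and Cyp2d26 are lowest in AOM/DSS, Cyp2d10 and Cyp2d12 are highest there, and Cyp2s1 and Cyp2e1 are lowest in WMW-H.

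Cyp3a13 (ENSMUSG00000029727), which oxidises drugs and steroids and is known for expression in the mouse gut, was also lowest in AOM/DSS. It had 48.6, 50.4, 47.7, 48.6 and 51.1 FPKM in WMW-H libraries, 28.7, 30.2, 29.2, 32.4 and 30.4 FPKM in AOM/DSS libraries and 50.4, 50.3, 47.2, 50.7 and 50.1 FPKM in Control libraries. AOM/DSS values were all lower than the rest, and WMW-H and Control overlapped. The difference was -0.70 ± 0.03 (SE, adjusted p = 6.70e-12) for AOM/DSS against Control, 0.69 ± 0.03 (SE, adjusted p = 1.65e-11) for WMW-H against AOM/DSS and -0.01 ± 0.03 (SE, adjusted p = 0.767), not called, for WMW-H against Control. The absorptive colonocyte markers, such as Car1 and Slc26a3, summed to 8091 to 8432 in WMW-H, 6901 to 6951 in AOM/DSS and 9216 to 9462 FPKM in Control libraries. Of the 12 markers, 3 rose and 9 fell in AOM/DSS against Control (45.5% and 20.6% of all tested genes). In WMW-H against AOM/DSS, 5 were higher and 6 lower (25.9% and 40.9% of all tested genes), with a median difference of -0.12. The sum therefore did not follow most of the list in that comparison. The part of such cells in the levels of Cyp3a13, Cyp2c65 and Cyp4f14 was not tested.

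Cyp2s1 (ENSMUSG00000040703), an epithelial P450 that dioxin induces through the aryl hydrocarbon receptor (AHR), was lower in both other groups than in Control. It had 26.9, 26.6, 28.8, 26.8 and 28.98 FPKM in WMW-H libraries, 36.5, 36.3, 41.01, 38.4 and 37.95 FPKM in AOM/DSS libraries and 57.03, 56.2, 56.8, 59.2 and 56.3 FPKM in Control libraries. WMW-H was lowest and Control highest, and no group overlapped with another. The difference was -0.58 ± 0.04 (SE, adjusted p = 2.53e-10) for AOM/DSS against Control, -0.45 ± 0.04 (SE, adjusted p = 9.89e-09) for WMW-H against AOM/DSS and -1.02 ± 0.04 (SE, adjusted p = 2.54e-13) for WMW-H against Control. Cyp2e1 (ENSMUSG00000025479), which oxidises ethanol and activates azoxymethane, had the same order. It stood at 14.01, 15.5, 13.5, 15.9 and 16.3 FPKM in WMW-H libraries, 23.6, 24.7, 25.5, 23.9 and 24.7 FPKM in AOM/DSS libraries and 28.4, 27.4, 29.2, 28.6 and 29.6 FPKM in Control libraries. WMW-H values were all lower than the others, and no group overlapped with another. The difference was -0.22 ± 0.05 (SE, adjusted p = 4.70e-04) for AOM/DSS against Control, -0.67 ± 0.05 (SE, adjusted p = 1.25e-09) for WMW-H against AOM/DSS and -0.89 ± 0.05 (SE, adjusted p = 4.13e-11) for WMW-H against Control. Cyp2e1 is also abundant in adipocytes. Of 9 adipocyte markers 8 fell in AOM/DSS against Control and 9 in WMW-H against AOM/DSS, where 20.6% and 40.9% of all tested genes fell. The markers summed to 123 to 138 in WMW-H, 207 to 214 in AOM/DSS and 294 to 318 FPKM in Control libraries. The part of adipocytes in the Cyp2e1 level was not tested.

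Cyp2b10 (ENSMUSG00000030483), the classical target of the nuclear receptor CAR in mouse liver, was near 0 in Control libraries. It had 0.495, 0.256, 0.335, 0.276 and 0.223 FPKM in WMW-H libraries, 1.36, 1.01, 1.42, 1.45 and 1.47 FPKM in AOM/DSS libraries and 0.0490, 0.0310, 0, 0.0280 and 0.0290 FPKM in Control libraries. AOM/DSS was highest and Control lowest, and no group overlapped with another. The difference on the log2(FPKM + 1) scale was 1.18 ± 0.07 (SE) for AOM/DSS against Control and -0.83 ± 0.07 (SE) for WMW-H against AOM/DSS. Cyp2b10 reached 1 FPKM in the 5 AOM/DSS libraries only and so entered the test through the group where it was high, so these differences are given as a description, with no p. For WMW-H against Control, neither of which reached 1 FPKM, it was 0.35 ± 0.07 (SE, adjusted p = 5.07e-04), a call lost under quantile normalization (adjusted p = 0.852). Cyp2f2 (ENSMUSG00000052974), the naphthalene-oxidising enzyme of airway club cells, shared this order and reached 1 FPKM in the 5 AOM/DSS and 3 WMW-H libraries. Without the AOM/DSS libraries Cyp2f2 would not have entered the test, so its calls against them are no support for a change. It had 0.910, 1.31, 1.31, 0.944 and 1.08 FPKM in WMW-H libraries, 3.38, 2.92, 2.78, 3.01 and 2.32 FPKM in AOM/DSS libraries and 0.304, 0.523, 0.507, 0.916 and 0.915 FPKM in Control libraries. AOM/DSS was highest, and WMW-H overlapped with Control only. The difference was 1.26 ± 0.11 (SE, adjusted p = 1.79e-08) for AOM/DSS against Control, -0.88 ± 0.11 (SE, adjusted p = 1.82e-06) for WMW-H against AOM/DSS and 0.38 ± 0.11 (SE, adjusted p = 0.00568) for WMW-H against Control, and the last was lost with quantile normalization (adjusted p = 0.0847) and the exact rank-sum test (adjusted p = 0.0581).

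The 250 bases before the starts of the neighbours Cyp2s1 (chr7:25816526-25816775, - strand) and Cyp2b10 (chr7:25897408-25897657, + strand) follow, with GCGTG, the core letters bound by AHR with its partner ARNT, in capitals on either strand.
Cyp2s1: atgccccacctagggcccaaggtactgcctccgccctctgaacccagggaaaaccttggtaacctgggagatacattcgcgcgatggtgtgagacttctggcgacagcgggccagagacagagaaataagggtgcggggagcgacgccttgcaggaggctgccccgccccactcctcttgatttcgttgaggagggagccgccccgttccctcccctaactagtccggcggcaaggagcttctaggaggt
Cyp2b10: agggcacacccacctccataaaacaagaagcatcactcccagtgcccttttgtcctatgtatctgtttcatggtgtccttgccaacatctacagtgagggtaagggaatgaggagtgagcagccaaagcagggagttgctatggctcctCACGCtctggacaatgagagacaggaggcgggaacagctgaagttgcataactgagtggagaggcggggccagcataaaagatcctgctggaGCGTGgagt
The Cyp2b10 stretch holds GCGTG beginning at position -9 and, read on the other strand, at positions -101 to -97. The Cyp2s1 stretch holds none of the letters searched in this window. GCGTG occurs in 7 of the 21 members' promoters, counted over any listed start, and in 28.2% of all promoters counted, over the first listed start. The nuclear receptor letters AGGTCA and AGTTCA occur in 1 and 2 members, against 13.8% and 11.9% of all promoters.

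The remaining tested members were the epoxygenase genes Cyp2j6 and Cyp2j9 and the gene Cyp2w1, which in humans is known for expression in colon tumours. Cyp2j6 averaged 19.9 ± 1.13 FPKM in WMW-H, 12.9 ± 0.640 in AOM/DSS and 15.8 ± 0.457 in Control libraries, with differences of -0.27 ± 0.04 (SE, adjusted p = 2.87e-05) for AOM/DSS against Control, 0.59 ± 0.04 (SE, adjusted p = 3.23e-09) for WMW-H against AOM/DSS and 0.31 ± 0.04 (SE, adjusted p = 8.51e-06) for WMW-H against Control. Its neighbour Cyp2j9 averaged 1.96 ± 0.288 FPKM in WMW-H, 1.02 ± 0.0922 in AOM/DSS and 1.48 ± 0.147 in Control libraries, with differences of -0.30 ± 0.07 (SE, adjusted p = 0.00158) for AOM/DSS against Control, 0.55 ± 0.07 (SE, adjusted p = 3.60e-06) for WMW-H against AOM/DSS and 0.25 ± 0.07 (SE, adjusted p = 0.00590) for WMW-H against Control. Both were thus lowest in AOM/DSS and highest in WMW-H, and the WMW-H against Control call of Cyp2j9 was lost with quantile normalization (adjusted p = 0.0555) and the exact rank-sum test (adjusted p = 0.0581). Cyp2w1 averaged 0.860 ± 0.247 FPKM in WMW-H, 1.19 ± 0.232 in AOM/DSS and 0.696 ± 0.226 in Control libraries. Outside AOM/DSS, its highest group, Cyp2w1 reached 1 FPKM only in WMW-H library 2 (1.24 FPKM) and Control library 4 (1.06 FPKM). It would not have entered the test without the AOM/DSS libraries, so calls against them are no support for a change. The difference was 0.37 ± 0.11 (SE, adjusted p = 0.00566) for AOM/DSS against Control, a call lost under quantile normalization (adjusted p = 0.216). Its differences of -0.24 ± 0.11 (SE, adjusted p = 0.0580) for WMW-H against AOM/DSS and 0.13 ± 0.11 (SE, adjusted p = 0.299) for WMW-H against Control were not called. Without Control library 4, AOM/DSS library 3 or WMW-H library 2 the WMW-H against AOM/DSS difference passed, at adjusted p = 0.0164 to 0.0402.

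The other 53 members were below the filter and were not tested. Among them, 15 were listed at 0 in every library, and 7 reached a group mean of 0.5 FPKM. Cyp3a44 had 0.560, 0.694, 0.436, 0.569 and 0.529 FPKM in WMW-H libraries, 0.249, 0.126, 0.488, 0.312 and 0.344 FPKM in AOM/DSS libraries and 1.28, 1.11, 1.11, 1.36 and 0.898 FPKM in Control libraries. Control values were all higher than those of the other groups, and WMW-H overlapped with AOM/DSS only. Cyp2r1, which encodes a vitamin D 25-hydroxylase, averaged 0.440 ± 0.167 FPKM in WMW-H, 0.437 ± 0.190 in AOM/DSS and 0.828 ± 0.321 in Control libraries. Cyp4f39, the mouse counterpart of the human gene for a skin acylceramide hydroxylase, averaged 0.219 ± 0.0345 FPKM in WMW-H, 0.681 ± 0.142 in AOM/DSS and 0.141 ± 0.0695 in Control libraries. The 8 squamous epithelium markers, of which Sprr3 was at 0 in all libraries and Ivl in WMW-H, moved with it, summing to 2.98 to 3.76 in WMW-H, 9.13 to 11.7 in AOM/DSS and 0.280 to 0.845 FPKM in Control libraries, and their part in the Cyp4f39 level was not tested. Cyp2c69, Cyp2u1 and Cyp3a25 stayed between 0.0280 and 1.04 FPKM in single libraries, with overlapping groups. The other 31 members above 0 had no single value over 0.626 FPKM.

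The low values of Cyp4a and Cyp2j genes known from kidney and liver came almost wholly from 3 libraries. Cyp4a14, a fatty acid hydroxylase gene that PPARA controls, had 0.541 and 0.343 FPKM in WMW-H libraries 4 and 5, 0.0210 FPKM in Control library 4 and 0 in all others. Cyp4a31 had 0.259 and 0.498 FPKM and Cyp4a10 0.143 and 0.292 FPKM in WMW-H libraries 4 and 5. Cyp2j5, abundant in mouse kidney and liver, had 0.626 and 0.443 FPKM in WMW-H libraries 4 and 5 and 0.273 FPKM in Control library 4, with at most 0.0700 FPKM in the other libraries. A list of 10 kidney tubule genes, written after these values were seen, summed to 1.07, 1.27, 1.16, 10.9 and 7.81 FPKM in WMW-H libraries 1 to 5, 2.21, 2.01, 1.78, 1.89 and 2.01 FPKM in AOM/DSS libraries and 0.686, 0.773, 0.721, 7.27 and 0.626 FPKM in Control libraries. The same 3 libraries stood out, chiefly through Kap, at 6.65 and 4.32 FPKM in WMW-H libraries 4 and 5 and 5.82 FPKM in Control library 4. Without these 3 libraries, the differences of WMW-H against Control lost their calls for Cyp2d34 (adjusted p = 0.119), Cyp4f40 (adjusted p = 0.0569) and Cyp2d22 (adjusted p = 0.0653), and Cyp2d9 gained one for WMW-H against AOM/DSS (adjusted p = 0.00380). All other member calls in the 3 comparisons stood without them.

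**Figure D5:**
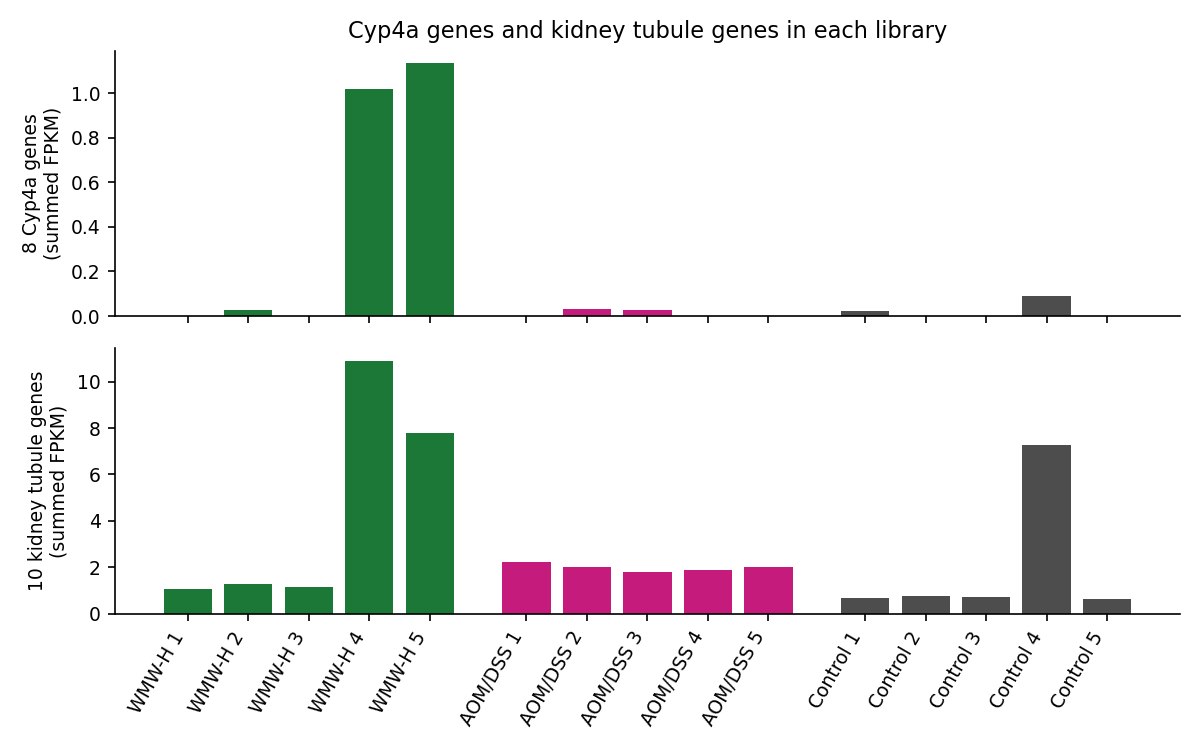
Summed FPKM per library of the 8 Cyp4a genes (upper panel) and of the kidney tubule list (lower panel). WMW-H libraries are left, AOM/DSS libraries in the middle and Control libraries right. WMW-H libraries 4 and 5 stand above the rest in both panels. Control library 4 stands out in the lower panel, and had only 0.09 FPKM in the upper.

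Genes that work with these enzymes were read from 5 lists. Their counts are to be read against all tested genes, of which 45.5% were called higher and 20.6% lower in AOM/DSS against Control, 25.9% and 40.9% in WMW-H against AOM/DSS and 35.4% and 24.1% in WMW-H against Control. Among 6 redox partners, 4 rose and 1 fell in AOM/DSS against Control, with a median difference of 0.11, about that of all tested genes at 0.12. Por, the electron donor of all microsomal P450s, averaged 74.7 ± 3.56 FPKM in WMW-H, 106 ± 4.01 in AOM/DSS and 96.8 ± 3.40 in Control libraries, a difference of 0.12 ± 0.04 (SE, adjusted p = 0.00544) for AOM/DSS against Control that was lost with size factors (adjusted p = 0.940). The other rises named by the rule, of 0.17 ± 0.03 (SE, adjusted p = 1.47e-05) for Cyb5r3, which reduces cytochrome b5, and of 0.16 ± 0.04 (SE, adjusted p = 0.00145) for Pgrmc2, were lost with size factors too (adjusted p = 0.0883 and 0.276). Pgrmc1, a haem-binding partner of P450s, fell, at 56.6 ± 2.28 FPKM in WMW-H, 33.9 ± 1.63 in AOM/DSS and 45.4 ± 1.69 in Control libraries, with a difference of -0.41 ± 0.04 (SE, adjusted p = 3.90e-08). WMW-H against AOM/DSS had 2 redox partners higher and 2 lower, and WMW-H against Control 4 higher and 1 lower.

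Of the 16 nuclear receptors, AHR partners and co-factors that control P450 genes, 14 were tested. In AOM/DSS against Control 9 fell and 3 rose, where all tested genes had 45.5% higher and 20.6% lower, with a median difference of -0.29, against 0.12 over all tested genes. Nr1h4, the bile acid receptor, averaged 37.1 ± 0.971 FPKM in WMW-H, 15.8 ± 0.585 in AOM/DSS and 33.2 ± 1.27 in Control libraries, with a difference of -1.03 ± 0.03 (SE, adjusted p = 3.40e-14) for AOM/DSS against Control. Hnf4g, a factor of intestinal epithelium, averaged 4.999 ± 0.284 FPKM in WMW-H, 4.35 ± 0.272 in AOM/DSS and 8.83 ± 0.467 in Control libraries, with a difference of -0.88 ± 0.05 (SE, adjusted p = 1.31e-10). The vitamin D receptor gene Vdr also fell, with a difference of -0.39 ± 0.03 (SE, adjusted p = 1.75e-09), as did Pparg, with -0.35 ± 0.03 (SE, adjusted p = 1.47e-08). Against this majority, Ahr averaged 4.15 ± 0.478 FPKM in WMW-H, 4.51 ± 0.108 in AOM/DSS and 3.78 ± 0.233 in Control libraries, a difference of 0.20 ± 0.06 (SE, adjusted p = 0.00780) for AOM/DSS against Control. Its partner Arnt differed by 0.17 ± 0.04 (SE, adjusted p = 0.00112) and the retinoid X receptor gene Rxrb by 0.16 ± 0.04 (SE, adjusted p = 0.00164). These 3 rises were lost with quantile normalization and with size factors, which gave adjusted p = 0.134 for Ahr, 0.240 for Arnt and 0.356 for Rxrb. Nr1i3, which encodes CAR, was below the filter, at 0.311 ± 0.140 FPKM in WMW-H, 0.474 ± 0.156 in AOM/DSS and 0.267 ± 0.158 in Control libraries. WMW-H against AOM/DSS had 5 higher and 4 lower, and WMW-H against Control 4 higher and 7 lower.

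Of 12 tested genes of haem synthesis and breakdown, 6 rose in AOM/DSS against Control and the other 6 were not called, with a median difference of 0.13. Both are near the values of all tested genes, 45.5% higher and a median of 0.12, so they are no result about the list. The largest rises were in breakdown, with Hmox1, the inducible haem oxygenase, at 12.5 ± 0.169 FPKM in WMW-H, 16.3 ± 1.03 in AOM/DSS and 6.32 ± 0.911 in Control libraries, a difference of 1.25 ± 0.07 (SE, adjusted p = 3.29e-11) for AOM/DSS against Control. Blvrb, a biliverdin reductase, differed by 0.99 ± 0.06 (SE, adjusted p = 2.76e-10), and the synthesis enzymes Alad and Urod by 0.30 ± 0.04 (SE, adjusted p = 1.16e-05) and 0.25 ± 0.05 (SE, adjusted p = 2.64e-04). WMW-H against AOM/DSS had 1 haem gene higher and 6 lower, and WMW-H against Control 3 higher and 3 lower.

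Of 11 tested epoxide hydrolase and eicosanoid genes, 5 rose and 4 fell in AOM/DSS against Control, with a median difference of 0.01. The share that rose is near the 45.5% of all tested genes, of which 20.6% fell and whose median was 0.12. The largest rises among them were of lipoxygenase genes. Alox15, a lipoxygenase gene, averaged 2.35 ± 0.274 FPKM in WMW-H, 29.9 ± 0.959 in AOM/DSS and 2.07 ± 0.316 in Control libraries, a difference of 3.34 ± 0.07 (SE, adjusted p = 7.89e-17) for AOM/DSS against Control. Alox12, another lipoxygenase gene, averaged 3.15 ± 0.600 FPKM in WMW-H, 9.92 ± 0.630 in AOM/DSS and 0.472 ± 0.104 in Control libraries, a difference of 2.89 ± 0.09 (SE, adjusted p = 9.83e-15). Lta4h, which makes leukotriene B4, rose by 0.44 ± 0.03 (SE, adjusted p = 3.80e-10), while Alox5, which starts leukotriene synthesis, fell, with a difference of -0.42 ± 0.08 (SE, adjusted p = 1.59e-04). Pla2g4a, the phospholipase that releases arachidonic acid, fell too, with a difference of -0.72 ± 0.05 (SE, adjusted p = 1.12e-09). Among epoxide hydrolase genes, Ephx4 differed by -0.60 ± 0.10 (SE, adjusted p = 5.96e-05) and Ephx2, the soluble form, by -0.22 ± 0.05 (SE, adjusted p = 7.73e-04). WMW-H against AOM/DSS had 2 higher and 5 lower (25.9% and 40.9% of all tested genes), and WMW-H against Control 2 higher and 4 lower (35.4% and 24.1% of all tested genes).

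In other P450 families, 6 of 22 listed genes were tested, and 3 rose and 1 fell in AOM/DSS against Control, against 45.5% higher and 20.6% lower of all tested genes, with a median difference of 0.21 against 0.12. WMW-H against AOM/DSS had 1 higher and 3 lower, and WMW-H against Control 4 higher and 1 lower. Cyp27a1, a sterol 27-hydroxylase gene, averaged 7.61 ± 0.501 FPKM in WMW-H, 17.9 ± 0.871 in AOM/DSS and 6.30 ± 0.314 in Control libraries, a difference of 1.37 ± 0.05 (SE, adjusted p = 1.25e-13) for AOM/DSS against Control. Cyp51, which demethylates lanosterol in cholesterol synthesis, fell, with a difference of -0.27 ± 0.02 (SE, adjusted p = 2.41e-08). Cyp20a1 differed by 0.27 ± 0.05 (SE, adjusted p = 2.04e-04), a call lost under quantile normalization (adjusted p = 0.121). Cyp21a1, the steroid 21-hydroxylase gene, was listed at 0 in every Control library and averaged 0.321 ± 0.118 FPKM in WMW-H and 2.19 ± 0.322 FPKM in AOM/DSS libraries. Cyp21a1 is in the counts above although it passed the filter through the AOM/DSS libraries alone. Its calls in the comparisons with AOM/DSS are therefore no support for a change. The AHR targets Cyp1a1 and Cyp1b1 were below the filter, Cyp1a1 at 0.234 ± 0.0829 FPKM in WMW-H, 0.154 ± 0.0596 in AOM/DSS and 0.321 ± 0.116 in Control libraries and Cyp1b1 at 0.391 ± 0.136 FPKM in WMW-H, 0.176 ± 0.0894 in AOM/DSS and 0.267 ± 0.0607 in Control libraries.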

How the data were processed

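The authors deposited FPKM values of 22063 genes, named by Ensembl identifier and symbol, in 15 libraries of polyadenylated RNA, made with the NEBNext Ultra kit per the labels' protocols. Tools listed in the submitters' processing notes are HISAT2, RSEM, StringTie (1.3.1), Bowtie2 (2.2.8) and fastp (0.18.0), and the genome build and annotation are not given in the sources used here. How those tools divided reads between near-identical genes decides the split within the Cyp2c, Cyp2d and Cyp4f arrays. FPKM are not counts, so no count model was used. Totals per library were 507895 to 535410 FPKM, so no common total had been imposed. Depth was scanned per library over 3328 genes with 1 transcript, and at the depths found 89.9% of 6498 low values came to a whole number of fragments, give or take 0.1, against 20.0% for evenly spread values. Within groups, the variance of recovered fragments over their mean had a median of 1.93 in WMW-H, 1.57 in AOM/DSS and 1.74 in Control libraries, where counting alone would give about 0.839, so libraries of a group differed by more than sampling noise. Whether this spread is that between mice is not known, since the labels do not say that each library came from a separate mouse.

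Tests covered the 12917 genes that reached 1 FPKM in 5 or more libraries. For each, log2(FPKM + 1) was modelled by 1 mean per group in limma (version 3.58.1, R version 4.3.3) with a trended empirical Bayes prior, two-sided, and p-values were adjusted by Benjamini-Hochberg across these genes at a threshold of 0.05. The procedure was tested on simulated data. The alternatives were a pseudocount of 0.1, other filters, TPM, size factors, quantile normalization, a fit of the 2 groups compared, a replicate block, an exact rank-sum test, leaving out each library, and, added after the data were seen, leaving out 3 libraries together. Every tested member is named, with values in each library for the 12 highest and for called members among the 6 largest changes of each comparison. From each of 5 pathway lists, up to 4 genes with the smallest p in AOM/DSS against Control are named, plus called genes against the majority. Members and lists were chosen with earlier results of these data known. Promoters are RefSeq's on GRCm38.p6, used for sequence and gene order only, and shared 50-base windows were counted in GENCODE M21, since the authors' build is not given. Figures were drawn with matplotlib 3.10.9.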

Additional observations from a re-analysis of the deposited data

Results flagged for a closer look

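In single groups of 5 libraries, 11 of 176 sets of values held 1 library far from the other 4, by a gap that chance alone gives in about 1 of 20 sets. Among members, WMW-H library 4 had 25.422 FPKM of Cyp4f40, where the others had 22.4 to 23.1, and WMW-H library 3 had 0.159 FPKM of Cyp4f39, where the others had 0.224 to 0.247. AOM/DSS library 2 had 1.007 FPKM of Cyp2b10, where the others had 1.36 to 1.47, and 2.157 FPKM of Cyp4f17, where the others had 1.52 to 1.64. Control library 4 had 24.453 FPKM of Cyp4f13, where the others had 27.3 to 28.0, and 59.236 FPKM of Cyp2s1, where the others had 56.2 to 57.0. Control library 3 had 47.16 FPKM of Cyp3a13, where the others had 50.1 to 50.7. Among related genes, WMW-H library 4 had 2.828 FPKM of Alox15, where the others had 2.16 to 2.34 FPKM, and 5.946 FPKM of Ephx4, where the others had 4.17 to 4.61 FPKM. AOM/DSS library 2 had 27.606 FPKM of Urod, where the others had 24.6 to 25.1 FPKM, and 11.37 FPKM of Cyp20a1, where the others had 9.56 to 10.02 FPKM.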

How the results depend on the processing

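Each result was recomputed under up to 25 alternatives. Of 75 member changes (25 members in 3 comparisons), 46 kept their direction and their side of the threshold under all of theirs, as did 19 of 26 named changes of related genes. With quantile normalization, 7 members were called lower in WMW-H against AOM/DSS, against 11, and 6 were called higher in WMW-H against Control, against 13, a count that was 8 with the exact rank-sum test. Rescaled to TPM, the members summed to 2568 in WMW-H, 2119 in AOM/DSS and 2415 in Control libraries, in the same order as in FPKM. With TPM, Cyp2d9, Cyp2d34, Cyp4f17 and Cyp2w1 gained a call in WMW-H against AOM/DSS, as did Cyp4f18 in WMW-H against Control with quantile normalization. The directions that turned were of differences not called with all libraries. For AOM/DSS against Control, Cyp2d22 stood at -0.0721 with size factors, -0.13 with quantile normalization and -0.0003 to 0.0677 on leaving out 1 library, and Cyp4f17 at -0.0029 with size factors and -0.0590 with quantile normalization. Cyp2d34 stood at 0.0025 for WMW-H against AOM/DSS and Cyp2w1 at -0.0651 for WMW-H against Control with quantile normalization. Cyp4f17 stood at 0.0169 for WMW-H against Control without the 3 libraries with kidney transcripts. The cause of these shifts was not tested. Deviations from group means correlated between -0.05 and 0.03 over 15 same-numbered pairs, so no broad shift was shared by replicate number. These correlations run over all tested genes and cannot exclude a pairing that touches few of them. With the replicate block, the call of 1 member changed, Cyp4f16 in WMW-H against AOM/DSS, with adjusted p = 0.0478 against 0.0550. Depth limits the members under 1 FPKM, which rest on few fragments.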

Other observations

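Members best known from the liver were also detected at low levels in a few libraries. Cyp2a5 had 0, 0.162, 0, 0.423 and 0.182 FPKM in WMW-H libraries 1 to 5, 0, 0.0250, 0, 0 and 0.104 FPKM in AOM/DSS libraries and 0.0240, 0.0290, 0, 0 and 0.0270 FPKM in Control libraries, so that WMW-H libraries 2, 4 and 5 were highest. Cyp2c29 had 0, 0.155, 0, 0.0330 and 0.208 FPKM in WMW-H libraries 1 to 5, 0 in every AOM/DSS library and at most 0.0270 FPKM in Control libraries. Alb, which encodes albumin, had 5.30, 11.8, 6.73, 12.2 and 12.1 FPKM in the same WMW-H libraries, 5.53, 6.57, 5.92, 6.79 and 6.63 FPKM in AOM/DSS libraries and 4, 0.254, 0.493, 0.236 and 0.367 FPKM in Control libraries, again highest in WMW-H libraries 2, 4 and 5. The 10 hepatocyte markers together summed to 19.7 to 33.9 FPKM in WMW-H, 28.7 to 34.3 FPKM in AOM/DSS, where Fga was at 0, and 12.5 to 17.3 FPKM in Control libraries.

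The remaining marker lists gave these sums. Goblet cell markers summed to 8974 to 9189.98 FPKM in WMW-H, 7189 to 7268 in AOM/DSS and 11049.6 to 11158 in Control libraries. Small-intestinal enterocyte markers summed to 218 to 225 FPKM in WMW-H, 169.9 to 184 in AOM/DSS and 242 to 259.6 in Control libraries. Paneth cell markers summed to 1381 to 1522 FPKM in WMW-H, 1408 to 1473 in AOM/DSS and 1326 to 1360.03 in Control libraries. Of these 8 markers, 7 were higher and 1 lower in AOM/DSS against Control (45.5% and 20.6% of all tested genes). Their median difference was 5.31 for AOM/DSS against Control, -1.60 for WMW-H against AOM/DSS and 3.27 for WMW-H against Control. The near-equal sums thus do not show how the typical gene of this list moved. Fibroblast markers summed to 464 to 499 FPKM in WMW-H, 448 to 467 in AOM/DSS and 244 to 252 in Control libraries. Endothelium markers summed to 69.6 to 74.9 FPKM in WMW-H, 73.6 to 77.3 in AOM/DSS and 52.9 to 55.7 in Control libraries.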
